A study of Mus musculus with 24 samples.

Results

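Day 7 reprogrammed cells that had received interferon gamma (IFNγ) and had switched the X-linked GFP reporter on to a high level were set against embryonic stem cells (ESCs), to ask which expression differences from ESCs were still present. All 15387 genes with a mean above 10 normalized counts over the 4 libraries were taken, of 37315 genes in the table, and the 4 libraries belong to a series of 24 from 12 populations with 2 libraries each. Both groups carry the PaX genome, a female hybrid of the strains 129S1/SvImJ (Mus musculus) and CAST/EiJ (Mus castaneus), with a GFP gene in Hprt and a truncated Tsix on the musculus X (X mus), a Nanog promoter RFP reporter, and a doxycycline-inducible MKOS cassette (Myc, Klf4, Oct4 and Sox2) with its transactivator in the Sp3 locus. The IFNγ-treated X-GFP high cells came from neural precursor cells (NPCs) made from this ESC line. They were reprogrammed on irradiated male fibroblast feeders in 15% serum with LIF, ascorbic acid and doxycycline, received 10 ng/ml IFNγ from day 0 to 5, and were taken at day 7 by an SSEA1 enrichment and a sort for high X-GFP. The ESCs grew without doxycycline or IFNγ on gelatin in 10% serum with LIF at 1000 U/ml. Control X-GFP high cells, treated alike but without IFNγ, served as the second reference. All cells go back to 1 genetically engineered line. Feeders, serum, ascorbic acid, doxycycline, the sort and time in culture differ between reprogrammed cells and ESCs together with the reprogrammed state. These factors cannot be told apart.

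IFNγ binds a receptor of the IFNGR1 and IFNGR2 chains, and the JAK1 and JAK2 kinases attached to it carry the signal to GAS sites in promoters, which switches on IRF1, guanylate-binding proteins, immunity-related GTPases and the machinery of antigen presentation. Mouse ESCs held in serum and LIF rest on another branch of the same pathway, in which LIF acts through gp130 and STAT3 on naive pluripotency factors, while FGF signals through ERK favour exit from that state. Female ESCs carry 2 active X chromosomes, NPCs carry 1, and the inactive X is switched on again late in reprogramming.

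Each library held 24746109 to 30359554 reads on genes, and mitochondrial genes took 16.3% and 13.5% of the reads in the IFNγ-treated X-GFP high libraries against 10.5% and 9.96% in ESCs. The values are normalized counts, that is, reads divided by a factor for each library, and 1 read was worth 0.952 to 1.16 normalized counts in these libraries. Markers of the labelled cells were in place. The summed level of 7 pluripotency markers was 111005 to 112951 in the IFNγ-treated cells and 133717 to 141591 in ESCs, against 61.5 to 88.5 in NPCs. Neural markers summed to 1415 to 1498, against 796 to 865 in ESCs and at least 43258 in NPCs. The replicates were distinct libraries, and the pair of IFNγ-treated libraries spread more than the pair of ESC libraries (chi-square per degree of freedom 13.9 against 5.17). The study's methods call the replicates independent, but the sources used here do not say whether they were separate cultures, so the p-values measure the spread between these samples, which may be technical. A log2 fold change below is the difference of mean log2(normalized count + 1), a gene was called at an adjusted p under 0.1 by limma, and ± gives the standard error with n = 2 libraries in each group. A library pair alone cannot go below an exact two-sided p of 0.33.

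Most genes differed from ESCs by this test, and most of these differences were smaller than 2-fold. Of the 15387 genes, 5116 were higher in the IFNγ-treated X-GFP high cells (33.2%) and 5215 were lower (33.9%), while 5056 were not called. At 2-fold or more the split was uneven, with 1984 genes higher (12.9%) and 790 lower (5.13%). The median log2 fold change was -0.01, its quartiles were -0.38 and 0.50, and 12604 genes (81.9%) stayed within 2-fold. Set directly against control X-GFP high cells, 2830 of 15598 genes were higher with IFNγ (18.1%) and 3175 were lower (20.4%), and at 2-fold or more 220 were higher (1.41%) and 851 lower (5.46%). Control X-GFP high cells differed from the same ESC libraries in 5850 genes that were higher (37.9%) and 5837 that were lower (37.8%) of 15427. The latter comparison shares the ESC libraries with the first, so its values are only given side by side. The count of genes higher than control rested on control replicate 1, without which it was 967, with 1774 lower. Without control replicate 2 it was 1827. These shares are the background for the 34 gene lists described below, and against them calls in both directions within a list are usual. Counts of 1 to 3 members in the rarer direction of a list changed by 1 or 2 genes when a single library was left out (epidermal, fibroblast, hypoxia, immediate early and heat shock, p53 target and primitive endoderm genes).

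**Figure D1:**
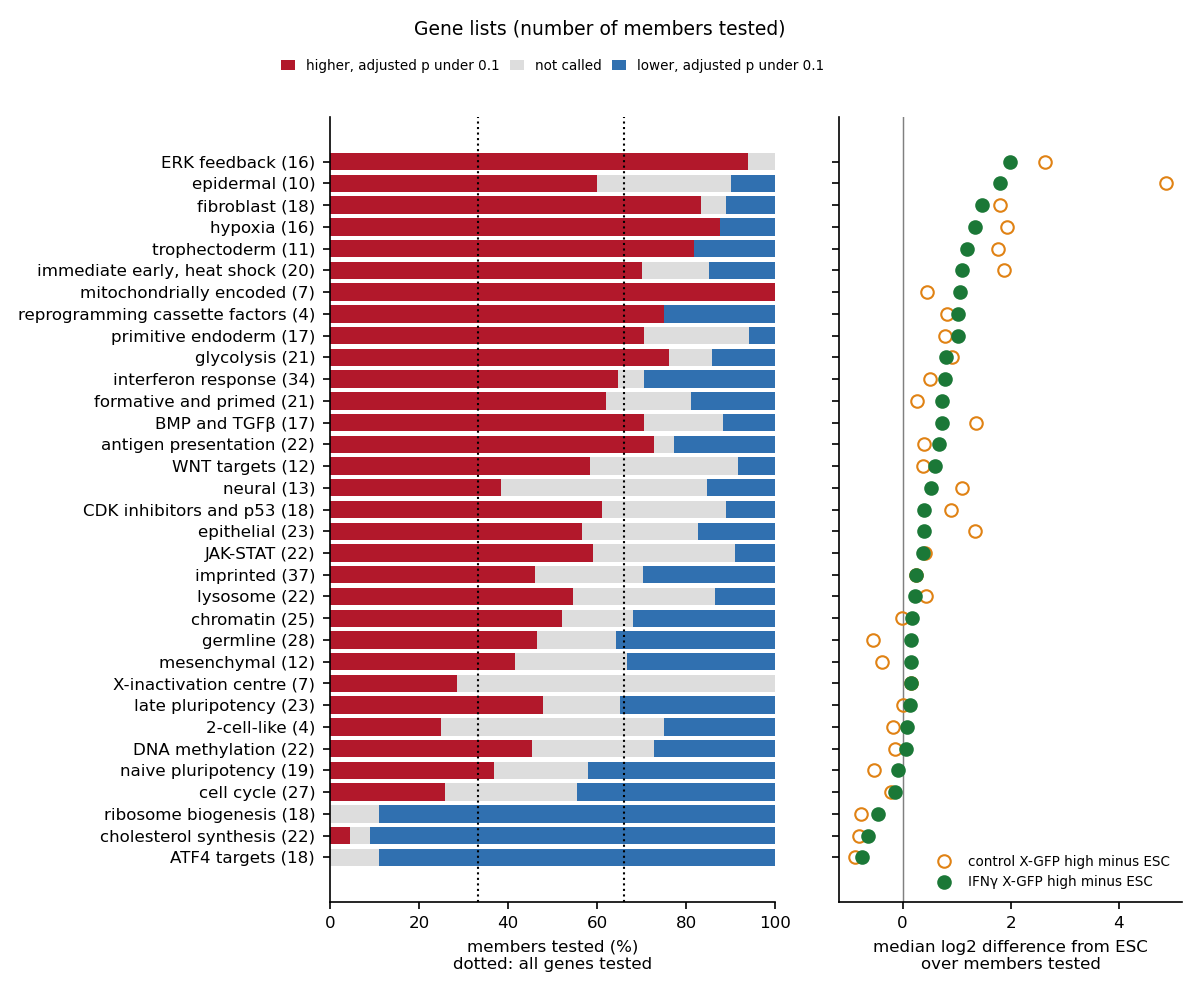
Gene lists in IFNγ-treated X-GFP high cells against ESCs. Left, the percentage of tested members called higher, not called and called lower, with dotted lines at the shares over all genes (33.2% higher and 33.9% lower). Right, the median log2 fold change against ESCs of IFNγ-treated (filled) and control (open) X-GFP high cells, which share the ESC libraries. ERK feedback genes had the highest median of these lists (1.98) and genes of the amino acid response the lowest (-0.76).

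Among the 10 largest increases, Clec2i, a C-type lectin-like ligand of natural killer receptors, had 377 and 340 normalized counts in the IFNγ-treated libraries and 1.97 and 1.90 in the ESC libraries, a ratio of 185 (95% exact counting interval 72.0 to 683). Serpina3m, a serine protease inhibitor of a gene cluster whose copies can share reads, had 2090 and 1746 against 17.7 and 12.4 (log2 fold change 6.92 ± 0.18, adjusted p = 5.5e-10). Tbx20, a T-box factor of the heart, had 512 and 599 against 5.90 and 10.5 (5.96 ± 0.26, adjusted p = 8.9e-09). All 3 genes were called higher than in control X-GFP high cells as well, by 0.64, 0.33 and 0.79 on the log2 scale. Tnc (tenascin C) and Thbs1 (thrombospondin 1), matrix proteins, varied between the IFNγ-treated libraries, with 195 and 70.5 for Tnc and 643 and 361 for Thbs1, but every value lay above the ESC values of at most 1.97 and 8.84. Krt6a, a keratin with a near-identical copy, had 88.0 and 156 against 0 and 0.952, and lay below the 414 and 442 of the control X-GFP high cells (log2 fold change against control -1.86 ± 0.22, adjusted p = 7.9e-05).

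Among the largest decreases, Cyp1a1, the cytochrome that is the textbook target of the aryl hydrocarbon receptor, had 0 and 2.31 normalized counts in the IFNγ-treated libraries against 519 and 394 in ESCs, a ratio of 396 in favour of ESCs (95% exact counting interval 109 to 3278). Other genes of that receptor, chosen after this value was seen, were its repressor Ahrr (-3.33 ± 0.30), the quinone reductase Nqo1 (-2.91 ± 0.10) and Cyp1b1 (-2.03 ± 0.34), all called lower than in ESCs, while Tiparp was higher (0.38 ± 0.07). Hhip, a hedgehog-binding antagonist, had 5.71 and 19.6 against 448 and 433 (-5.23 ± 0.39). Among hedgehog targets chosen after Hhip was seen, the transcription factor Gli1 (-3.08 ± 0.19) was lower and the receptor Ptch1 was higher (0.46 ± 0.09). The neuronal genes Tubb3 (beta-III tubulin, 466 and 710 against 7671 and 6901) and Gap43 (growth-associated protein, 21.7 and 49.7 against 428 and 471) were also among the 10 largest decreases. Their levels in ESCs were the high ones, and both were lower still than in control X-GFP high cells, by -0.65 and -1.55 on the log2 scale.

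Most tested interferon-response genes were above ESC level 2 days after IFNγ was withdrawn. Part of them were also above the untreated X-GFP high cells. Of 49 members in the table, 15 were under the filter. A gene near 0 in ESCs passes the filter only if the treated cells are high, which favours calls of higher. Of 34 tested members, 22 were higher than in ESCs, 14 of them at least 2-fold, 10 were lower and 2 were not called. The median log2 fold change was 0.78 against -0.01 over all genes tested. In control X-GFP high cells 20 of 36 were higher than in ESCs and 10 lower, with a median of 0.51. Of the 22 genes higher than in ESCs, 11 were also higher than in control X-GFP high cells, 3 were lower and 8 were not called. Over all 40 members tested against control, 17 were higher and 6 lower. These counts fell to 7 and 2 without control replicate 1, and the 17 fell to 9 without control replicate 2.

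Promoters of 4 interferon or antigen-presentation genes that the results turn on are shown, as the 250 bases before the RefSeq start of each gene (GRCm38.p6), written in the direction of transcription. Capitals mark the letters of an interferon-stimulated response element (ISRE, GAAANNGAAA) or a gamma-activated site (GAS, TTCNNNGAA), searched on both strands, and no pair of them overlapped. The windows are chr3:142620413-142620662 on the plus strand for Gbp2, chr11:58199306-58199555 on the plus strand for Igtp, chr11:49064213-49064462 on the minus strand for Tgtp2 and chr17:34197945-34198194 on the plus strand for Psmb8.
Gbp2: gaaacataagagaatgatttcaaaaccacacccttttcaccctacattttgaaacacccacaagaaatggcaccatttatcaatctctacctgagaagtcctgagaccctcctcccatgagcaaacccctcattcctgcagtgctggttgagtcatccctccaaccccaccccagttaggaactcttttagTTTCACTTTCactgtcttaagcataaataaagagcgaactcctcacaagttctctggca
Igtp: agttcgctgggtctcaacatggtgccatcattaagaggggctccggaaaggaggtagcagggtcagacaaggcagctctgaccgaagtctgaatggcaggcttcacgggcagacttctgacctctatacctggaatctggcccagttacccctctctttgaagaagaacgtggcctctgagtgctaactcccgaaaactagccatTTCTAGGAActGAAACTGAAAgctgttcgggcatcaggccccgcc
Tgtp2: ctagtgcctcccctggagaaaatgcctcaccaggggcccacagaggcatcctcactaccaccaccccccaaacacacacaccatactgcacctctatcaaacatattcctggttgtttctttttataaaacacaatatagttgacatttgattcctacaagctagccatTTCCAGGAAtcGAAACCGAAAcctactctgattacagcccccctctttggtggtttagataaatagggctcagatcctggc
Psmb8: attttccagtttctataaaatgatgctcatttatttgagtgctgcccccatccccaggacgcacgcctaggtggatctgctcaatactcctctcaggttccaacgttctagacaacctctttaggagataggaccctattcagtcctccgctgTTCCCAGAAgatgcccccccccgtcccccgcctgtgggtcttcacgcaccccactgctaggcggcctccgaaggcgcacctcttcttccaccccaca
Igtp and Tgtp2 hold both motifs, Gbp2 holds an ISRE on the other strand, and Psmb8 holds a GAS. An ISRE was found in 17 of 37 interferon-response genes with an entry (45.9%) and in 936 of 27025 promoters of all genes (3.46%). A GAS was found in 12 of the 37 (32.4%) and in 8.13% of all promoters. Among 20 antigen-presentation genes with an entry, 3 held an ISRE (15%). A GAS was held by 2 of these 20 (10%), near the share over all promoters. A match describes the letters and is no evidence of binding.

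Gbp2, a guanylate-binding protein of cell-autonomous immunity, had 111 and 147 normalized counts in the IFNγ-treated X-GFP high libraries, 1.97 and 1.90 in ESCs, and 107 in each of the control X-GFP high libraries. The ratio to ESCs was 66.5 (95% exact counting interval 25.6 to 246), whereas the difference from control was not called (log2 fold change 0.25 ± 0.19, adjusted p = 0.35). The same gene had averaged 19835 at day 2 and 6984 at day 5 with IFNγ, against 442 and 834 without it. At day 7 both X-GFP high populations lay above ESCs without overlap. Tgtp2, a T cell-specific GTPase whose near-identical copy Tgtp1 can take its reads, behaved otherwise. It had 22.8 and 23.1 with IFNγ, 1.97 and 0 in ESCs, and 1.03 and 2.13 in control X-GFP high cells, a log2 fold change against control of 3.25 ± 0.48 (adjusted p = 0.00041) that was not called when either IFNγ-treated library was left out. Its means at day 2 and day 5 had been 21024 and 1271 with IFNγ.

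Igtp and Irgm2, of the immunity-related GTPases that attack the vacuoles of intracellular parasites, were higher than in both ESCs and control. Igtp had 84.5 and 89.0 with IFNγ, 14.7 and 20.9 in ESCs and 37.1 and 51.2 in control X-GFP high cells (log2 fold change 2.24 ± 0.27 against ESCs and 0.98 ± 0.24 against control, the latter not called without control replicate 1). Irgm2 was higher than ESCs by 1.07 ± 0.25 and higher than control by 1.16 ± 0.25, with adjusted p of 0.0031 and 0.0049, and its control and ESC levels were not called different. Irf1, the transcription factor of the first wave, had 1120 and 1171 against 658 and 719 in ESCs (0.73 ± 0.09, adjusted p = 2.2e-05). Of the 10 genes lower than in ESCs, Ifit2, an RNA-binding antiviral protein, fell by 1.21 on the log2 scale, and the membrane protein Ifitm3, abundant in ESCs, fell by 0.80. Isg15, a ubiquitin-like protein, was too low to be tested, with 4.57 and 2.31 against 0 in both ESC libraries.

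**Figure D2:**
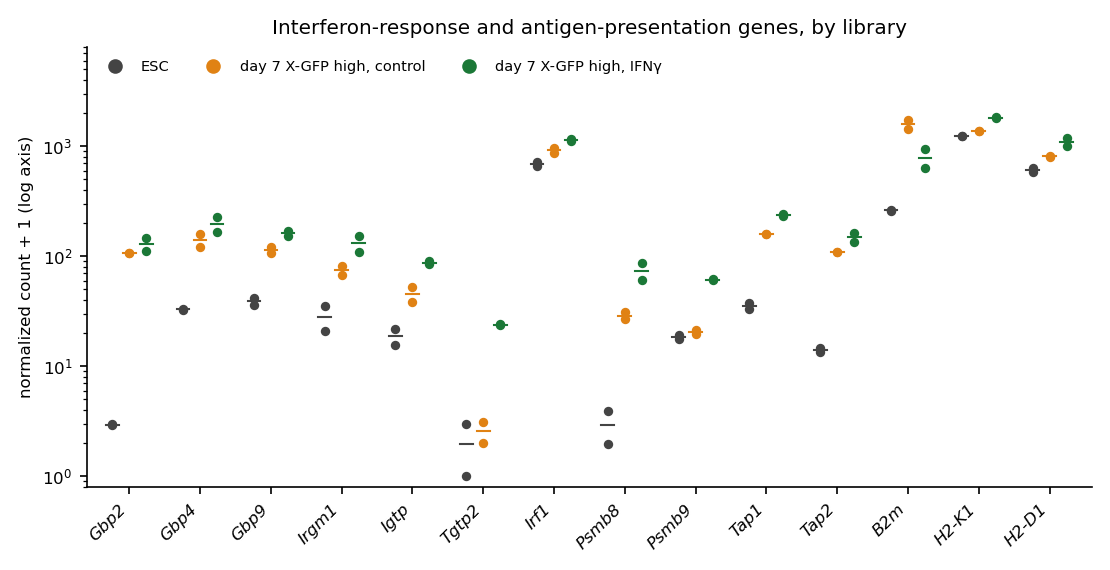
Normalized counts + 1 (log axis) of interferon-response and antigen-presentation genes in each library (points) with the mean (bars), for ESCs, control and IFNγ-treated day 7 X-GFP high cells. Gbp2 lies between 107 and 147 in both X-GFP high populations, Tgtp2 is at 22.8 and 23.1 in the IFNγ-treated libraries and at 2.13 or less in the others, and B2m is higher in control than in IFNγ-treated cells.

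MHC class I presentation genes showed the same direction. Of 22 tested, 16 were higher than in ESCs, 9 of them at least 2-fold, and 5 were lower, with a median log2 fold change of 0.68 (0.39 in control X-GFP high cells). Of the 16, 8 were higher than in control, 2 were lower and 6 were not called. Psmb8, a catalytic subunit of the immunoproteasome, had 59.4 and 85.5 with IFNγ, 2.95 and 0.952 in ESCs and 25.8 and 29.9 in control, so the 3 groups did not overlap (1.33 ± 0.27 against control, adjusted p = 0.0035). Psmb9, another such subunit, and H2-Q7, a nonclassical class I gene with near-identical neighbours, were near ESC level in control cells but higher with IFNγ. Psmb9 had 59.4 and 61.3 against 18.6 and 20.3 in control and 16.7 and 18.1 in ESCs. H2-Q7 had 46.8 and 55.5 against 8.25 and 17.1 in control and 15.7 and 6.66 in ESCs. The transporter genes Tap1 (2.75 ± 0.19) and Tap2 (3.41 ± 0.25) were higher than in ESCs, and Tap1 was higher than in control by 0.57 ± 0.14. The class I heavy chains H2-K1 and H2-D1 were higher than in ESCs by 0.56 ± 0.07 and 0.85 ± 0.10, and higher than in control by 0.40 and 0.43. B2m, the light chain of class I molecules, had 629 and 942 with IFNγ, 262 and 260 in ESCs and 1737 and 1441 in control, which put it above ESCs (1.56 ± 0.16) and below control (-1.04 ± 0.15, adjusted p = 0.00043). Among the 5 genes lower than in ESCs were the immunoproteasome subunit Psmb10 (-0.73 ± 0.12) and the peptide-loading chaperone Calr (-0.52).

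Receptors and transducers of the JAK-STAT pathway differed from ESCs mostly by less than 2-fold. Of 22 tested, 13 were higher, 3 at least 2-fold, and 2 were lower, with a median of 0.38 (0.42 in control cells). Ifngr2, a chain of the IFNγ receptor, had 133 and 118 against 39.3 and 31.4 in ESCs (1.80 ± 0.22), and Ifngr1, the other chain, had 160 and 151 against 86.5 and 87.6. Ifngr1 was lower than in control cells (-0.94 ± 0.14, adjusted p = 0.00042), which had 306 and 291. Lifr, the LIF receptor, had 5342 and 5065 against 2411 and 2576 in ESCs and 3849 and 3955 in control. Its difference was called in both comparisons, at 1.06 ± 0.07 and 0.41 ± 0.07. Stat3 (0.20 ± 0.07) and its feedback target Socs3 (0.58 ± 0.07) were higher than in ESCs, and neither was called different from control. The Stat3 call was lost without ESC replicate 1. Against control, 3 members were higher and 8 lower, 4 of them without control replicate 1.

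Naive pluripotency genes were called on both sides of ESC level at shares near those over all genes (33.2% and 33.9%). Of 19 tested, 7 were higher and 8 were lower, 2 at least 2-fold in each direction, with a median log2 fold change of -0.09, where control X-GFP high cells had 4 higher, 14 lower and a median of -0.53. Against control, 14 were higher with IFNγ, 1 was lower and 4 were not called. The 14 became 9 without control replicate 1. Nanog, the homeobox factor at the centre of the network, had 14755 and 14120 normalized counts with IFNγ, 26564 and 24098 in ESCs and 12268 and 11903 in control. All groups were apart, and Nanog was lower than in ESCs by -0.81 ± 0.08 (adjusted p = 3.3e-06) and higher than in control by 0.26 ± 0.07, a call lost without either control library. Zfp42 (Rex1), a marker of the naive state, had 15277 and 18950 against 19896 and 18326, so the groups overlapped (-0.17 ± 0.10, adjusted p = 0.16). Without IFNγ-treated replicate 2 it was called lower (-0.32). It was higher than in control by 0.52 ± 0.10. Klf2 was also not called against ESCs (-0.09 ± 0.06).

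Other naive genes were called below or above ESCs. Nr5a2, an orphan receptor, and Dppa3 (Stella), which protects the maternal methylome, were lower by -1.01 ± 0.08 and -1.05 ± 0.08. Prdm14, a repressor of FGF signalling and of de novo methylation, had 1417 and 1542 against 2162 and 1958 (-0.48 ± 0.08), and Tfcp2l1 was lower by -0.41 ± 0.11. Esrrb, an orphan receptor of the core network, was lower by -0.26 ± 0.07, a call lost without ESC replicate 1 and in the fit over all 24 libraries. Tbx3, a LIF-responsive T-box factor, had 5818 and 5924 with IFNγ, 1981 and 1857 in ESCs and 3660 and 3482 in control, the highest of the 3 groups (1.61 ± 0.07 against ESCs and 0.72 ± 0.07 against control). Manba, a lysosomal mannosidase on the list, was higher by 2.55 ± 0.08. Dppa3 differed from the rest of the list against control as well, as its only member called lower (-0.52 ± 0.09).

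Late pluripotency and formative genes also held calls on both sides of ESC level. Of 23 late pluripotency genes, 11 were higher, 5 at least 2-fold, and 8 were lower (median 0.13). Against control, 16 were higher and 2 lower. Mkrn1, a ubiquitin ligase, had 31052 and 30205 against 7608 and 7121 in ESCs (2.06 ± 0.07), Utf1, a chromatin factor of pluripotent cells, 2216 and 2495 against 647 and 556 (1.97 ± 0.10), and Tdgf1 (Cripto), the NODAL co-receptor, 23085 and 19914 against 6289 and 6590 (1.74 ± 0.08). Of 21 formative or primed genes, 13 were higher, 7 of them at least 2-fold, and 4 lower (median 0.73, and 0.28 in control cells). Otx2, the factor that directs the formative enhancers, had 3627 and 3735 against 464 and 364 in ESCs (3.16 ± 0.10, adjusted p = 1.5e-09) and 3552 and 3711 in control, from which it was not called different. Fgf5, the classic primed marker, stayed low at 21.7 and 30.0 against 2.95 and 0.952 (ratio 13.4, 95% exact counting interval 4.87 to 51.2). Lef1, a WNT effector, was higher than in ESCs by 3.06 ± 0.26 and lower than in control by -1.41 ± 0.13. Lefty1, an inhibitor of NODAL, had 1073 and 1329 against 6297 and 5770 (-2.33 ± 0.10), whereas its neighbour Lefty2 was not called (0.06 ± 0.08) unless IFNγ-treated replicate 1 was left out (0.17). Of the 4 cassette factors, Myc had 2335 and 2981 against 92.4 and 121 (4.63 ± 0.14), Klf4 was higher by 1.42 ± 0.07, Sox2 by 0.65 ± 0.07, and Pou5f1 (Oct4) was lower by -0.30 ± 0.07. Doxycycline was still present at day 7, and reads of the cassette may be counted on these genes. Of 21 genes of the 2-cell-like state only 4 were high enough to test, 1 higher and 1 lower. None was called without ESC replicate 2 or IFNγ-treated replicate 1, and 2 were higher without IFNγ-treated replicate 2.

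**Figure D3:**
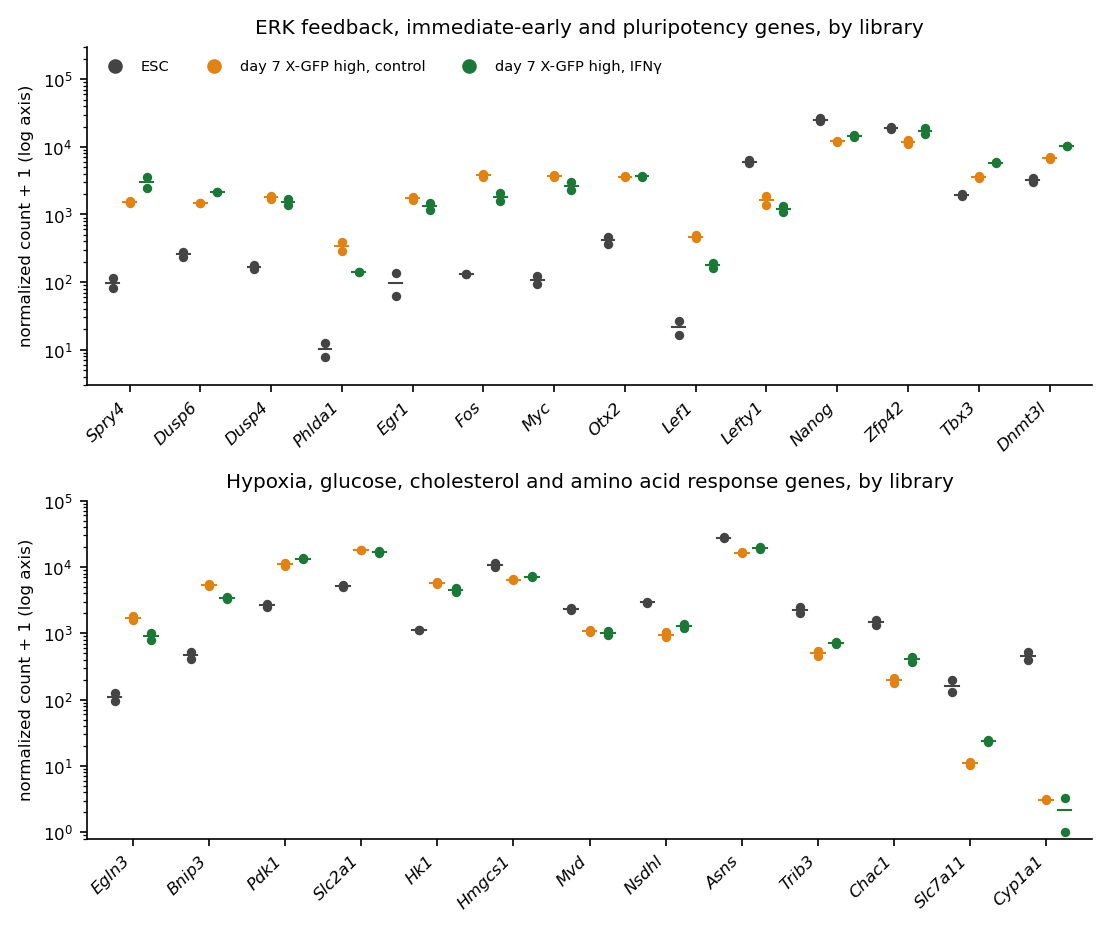
Normalized counts + 1 (log axis) in each library (points) with the mean (bars), for ESCs, control and IFNγ-treated day 7 X-GFP high cells. In the top panel the ERK feedback, immediate early and formative genes Spry4 to Lef1 lie above ESCs and Lefty1 and Nanog below. In the bottom panel hypoxia and glucose genes lie above ESCs, and cholesterol synthesis genes, amino acid response genes and Cyp1a1 lie below.

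Feedback inhibitors and targets of ERK had the highest median of the lists tested here. Of 16 tested, 15 were higher than in ESCs, 11 at least 2-fold, none was lower and 1 was not called, with a median log2 fold change of 1.98 (2.64 in control cells, 14 higher). Spry4, a Sprouty inhibitor of receptor tyrosine kinases, had 2481 and 3638 with IFNγ against 81.6 and 113 in ESCs (4.95 ± 0.18, adjusted p = 2.2e-09) and 1461 and 1570 in control. The ERK phosphatase genes Dusp6 (2159 and 2166 against 280 and 238, 3.06 ± 0.10) and Dusp4 (1694 and 1387 against 155 and 181, 3.19 ± 0.12) rose with it. Phlda1 was higher than in ESCs by 3.84 ± 0.30 and lower than in control by -1.24 ± 0.17. Against control, 4 members were higher, among them Spry4 (0.99 ± 0.14) and Dusp6 (0.55 ± 0.07), 6 were lower and 6 were not called. A pair of X-linked genes known to restrain this pathway in female ESCs went the other way. Dusp9, an ERK phosphatase, had 1478 and 1472 against 2456 and 2307 (-0.69 ± 0.07), and Klhl13, a ubiquitin ligase adaptor, had 10488 and 10420 against 29849 and 31106 (-1.54 ± 0.07, adjusted p = 1.1e-08).

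Most of a list of immediate early and heat shock genes, which answer growth factors, stress and also cell handling, were above ESC level and below control. Of 20 tested, 14 were higher than in ESCs and 3 lower (median 1.10), and 18 were lower than in control with none higher. The 3 lower ones were the heat shock chaperone genes Hspa8 (-0.88 ± 0.09), Dnajb1 (-0.45 ± 0.12) and Hspa1b (-0.95 ± 0.45), and 1 member was lower without ESC replicate 1. Fos had 2088 and 1572 against 131 and 129 in ESCs and 3953 and 3641 in control, and Egr1 had 1168 and 1489 against 60.9 and 134 and, in control, 1811 and 1663. Both X-GFP high populations were released with trypsin and sorted, and the part of the sort in these values was not tested. BMP and TGF-beta output genes were higher in 12 of 17 and lower in 2 (median 0.73, and 1.36 in control cells). Id3, an inhibitor of neural differentiation, had 872 and 876 against 76.7 and 65.7 (3.60 ± 0.13), the ligand gene Bmp4 1070 and 1379 against 193 and 195 (2.64 ± 0.12) and the matricellular gene Ccn2 5208 and 4149 against 296 and 308 (3.94 ± 0.10). Against control the list was split, with 7 of 17 higher and 6 lower (median 0.007). Bmp4 and Id3 were higher than in control, by 1.19 ± 0.13 and 0.68 ± 0.09, whereas Id1 (-0.71) and Ccn2 (-0.51) were lower. Id1, the most used BMP readout, was barely apart from ESCs (0.38 ± 0.18, adjusted p = 0.092), a call lost in DESeq2 and without either ESC library or IFNγ-treated replicate 2. WNT targets were higher in 7 of 12, led by Lef1, and lower in 1, the feedback inhibitor Notum (282 and 358 against 866 and 822), and neither Axin2 (-0.11 ± 0.12) nor Sp5 (0.12 ± 0.27) was called.

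Hypoxia-inducible and glucose-metabolism genes were above ESC level in most members. Of 16 hypoxia genes, 14 were higher, 11 at least 2-fold, and 2 were lower (median 1.35), and in the direct comparison 11 were lower than in control. Of 21 glycolysis genes, 16 were higher, 8 at least 2-fold, and 3 were lower (median 0.80). Egln3, a prolyl hydroxylase that marks HIF for destruction and is itself induced by it, had 789 and 1017 with IFNγ, 126 and 95.2 in ESCs and 1593 and 1835 in control, which placed the IFNγ-treated cells between both (3.02 ± 0.16 against ESCs and -0.93 ± 0.12 against control). The mitophagy receptor Bnip3 followed the same order (3530 and 3283, 528 and 415, 5169 and 5622). Pdk1, the kinase that closes pyruvate entry into mitochondria, was highest with IFNγ (13346 and 13535 against 2813 and 2543 in ESCs and 10536 and 11438 in control). The glucose transporter gene Slc2a1 (1.68 ± 0.07) and the hexokinase Hk1 (2.01 ± 0.08) were higher than in ESCs, and the lactate dehydrogenase Ldha by 0.33 ± 0.08, a call lost without ESC replicate 2. Because hypoxia genes moved together, the 250 bases before the RefSeq start of Egln3 (GRCm38.p6, chr12:54203875-54204124, minus strand) are shown, with the core of the hypoxia response element (ACGTG, searched on both strands) in capitals.
Egln3: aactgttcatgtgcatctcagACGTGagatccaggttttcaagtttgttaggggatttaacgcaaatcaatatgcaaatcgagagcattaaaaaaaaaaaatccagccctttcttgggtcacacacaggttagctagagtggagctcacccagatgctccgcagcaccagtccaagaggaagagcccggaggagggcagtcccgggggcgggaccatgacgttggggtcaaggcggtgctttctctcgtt
That core was found in 11 of 14 hypoxia genes with an entry (78.6%), in 11 of 21 glycolysis genes (52.4%) and in 18.5% of all promoters.

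Cholesterol genes and the amino acid response were lower almost throughout. Of 22 genes of cholesterol synthesis and uptake, 20 were lower than in ESCs and 1 was higher, with a median log2 fold change of -0.63 (-0.81 in control cells, 21 lower). Most were small differences: 4 reached 2-fold. Mvd, a decarboxylase of the mevalonate pathway, had 933 and 1104 against 2408 and 2265 (-1.20 ± 0.09), and Nsdhl, which is X-linked, had 1208 and 1367 against 3008 and 2871 (-1.19 ± 0.08). The exception that was higher was Srebf2, the transcription factor of the pathway (0.28 ± 0.07). Of 18 ATF4 targets, 16 were lower and none was higher, 7 at least 2-fold, with a median of -0.76. Leaving out ESC replicate 2 or IFNγ-treated replicate 2 made 1 member higher. Asparagine synthetase Asns had 19766 and 18638 against 28112 and 27484 (-0.53 ± 0.07), the pseudokinase Trib3 687 and 754 against 2012 and 2500 (-1.64 ± 0.10), the glutathione-degrading Chac1 443 and 369 against 1320 and 1607 (-1.85 ± 0.12), and the cystine transporter Slc7a11 24 and 22 against 129 and 194 (-2.73 ± 0.25). Chac1 and Trib3 were called higher than in control, by 1.05 ± 0.15 and 0.54 ± 0.11. Over the list, 12 of 18 were higher than in control, 5 without control replicate 1.

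Ribosome biogenesis genes were lower than in ESCs in 16 of 18, none by 2-fold (median -0.45, and -0.77 in control cells). Nop2, an rRNA methyltransferase, had 4296 and 5088 against 8828 and 8425 in ESCs and 3520 and 3688 in control. Against control 16 were higher with IFNγ and none was lower, and the 16 became 8 without control replicate 1. Nucleolin (Ncl) was not called against ESCs (-0.12 ± 0.12), with -0.36 without IFNγ-treated replicate 2 and 0.13 without replicate 1. Of 13 protein-coding genes of the mitochondrial genome, 7 were tested and 6 were under the filter. All 7 went up, 4 by at least 2-fold (median 1.05, and 0.44 in control cells). The complex I subunit gene mt-Nd1 had 73712 and 59290 against 34366 and 29488. Across these libraries the mitochondrial share of reads, which includes the reads of these genes, moved with mt-Nd1. That share was higher in IFNγ-treated replicate 1 than in replicate 2. Replication and mitosis genes differed little: 7 of 27 were higher, 12 lower and none by 2-fold (median -0.13), with the S-phase genes Ccne1 (-0.63 ± 0.10) and Pcna (-0.50) lower and Mki67 higher (0.50 ± 0.07). The 7 higher became 4 without ESC replicate 1 or 2. Among 18 CDK inhibitor and p53 target genes, 11 were higher and 2 lower (median 0.40). The inhibitor Cdkn1a (p21) had 1583 and 1701 against 1297 and 1403 in ESCs and 3561 and 3146 in control. It was higher than in ESCs by 0.28 ± 0.08, a call lost without ESC replicate 1, and lower than in control by -1.03 ± 0.08. Lysosomal genes were higher in 12 of 22 and lower in 3 (median 0.23), but their direction rested on single libraries. Without IFNγ-treated replicate 1 there were 7 higher and 7 lower, without IFNγ-treated replicate 2 15 and 1, and without ESC replicate 1 7 and 3.

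Genes that write, read and remove DNA methylation were called in both directions, as were all genes tested (33.2% higher and 33.9% lower). Of 22 tested, 10 were higher, 4 at least 2-fold, and 6 were lower (median 0.07). The 6 became 3 without ESC replicate 1 or 2. Tet1, the main 5-methylcytosine dioxygenase of ESCs, had 16015 and 22381 with IFNγ, 10285 and 11817 in ESCs and 13278 and 13593 in control (0.78 ± 0.13 against ESCs and 0.49 ± 0.12 against control). Tet2 was not called against ESCs (0.14 ± 0.08), and was called without IFNγ-treated replicate 1 (0.25). Both de novo methyltransferase genes were higher than in ESCs, Dnmt3a by 0.52 ± 0.09 and Dnmt3b by 0.93 ± 0.08. Dnmt3b had 5381 and 6137 with IFNγ against 2957 and 3093 in ESCs and 2907 and 3098 in control, so the control values overlapped with those of ESCs and the IFNγ-treated values lay above both. Their cofactor Dnmt3l had 10218 and 10148 against 3421 and 3061 in ESCs (1.65 ± 0.07) and 6615 and 7128 in control. The maintenance enzyme gene Dnmt1 (-0.14 ± 0.07) and Gadd45a (-0.21 ± 0.09) were lower than in ESCs at adjusted p of 0.098 and 0.062, calls that DESeq2 did not make. The Gadd45a call was lost without ESC replicate 2, and the Dnmt1 call without any 1 of ESC replicate 1, ESC replicate 2 and IFNγ-treated replicate 1. Against control, Gadd45a was higher by 0.59 (adjusted p = 0.00059), called in all 11 alternatives, and Dnmt1 was not called (0.10).

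Germline genes known to be silenced by promoter methylation were split. Of 28 tested, 13 were higher than in ESCs, 7 at least 2-fold, and 10 were lower, 6 at least 2-fold (median 0.16), where control X-GFP high cells had 10 higher, 16 lower and a median of -0.55. Against control 23 were higher with IFNγ and none was lower, 15 without control replicate 1. Mael, a piRNA pathway protein, had 612 and 613 with IFNγ, 266 and 327 in ESCs and 210 and 193 in control (1.05 ± 0.12 against ESCs and 1.60 ± 0.12 against control). Dazl, an RNA-binding protein of germ cells, was higher than in ESCs (0.74 ± 0.09) and than in control (0.57 ± 0.10). The helicase gene Ddx4 (183 and 138 against 489 and 441, -1.54 ± 0.15), the meiotic axis gene Hormad1 (-1.39 ± 0.08) and the X-linked Taf7l (-1.27 ± 0.18) stayed below ESCs and were called above control, by 0.78, 0.72 and 1.20. Dpep3, a dipeptidase of the testis, had 273 and 154 against 13.8 and 3.81 (4.61 ± 0.45) and was not called different from control. Polycomb and histone methylation genes were higher in 13 of 25 and lower in 8 (median 0.17), with Jarid2, a cofactor of PRC2, at 11231 and 13874 against 5512 and 5395 (1.19 ± 0.09). The 8 became 5 without ESC replicate 1.

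Autosomal imprinted genes held calls in both directions, the lower ones at a share near that over all genes. Of 37 tested, 17 were higher, 8 at least 2-fold, and 11 lower, 6 at least 2-fold (median 0.25). H19, a maternally expressed RNA, had 1428 and 1244 against 110 and 116 in ESCs (3.55 ± 0.12, adjusted p = 1.5e-09), and the neighbouring paternal genes Peg10 and Sgce were both higher (2.15 ± 0.07 and 2.63 ± 0.21). Mest had 891 and 1112 against 3456 and 3380 (-1.78 ± 0.10), Grb10 was lower by -1.37 ± 0.10 and Zdbf2 by -1.52 ± 0.16. The growth factor gene Igf2 had 152 and 347 with IFNγ, 108 and 124 in ESCs and 2746 and 2378 in control. It was nearer to ESCs than to control (0.98 ± 0.29 against ESCs, not called in DESeq2 or without IFNγ-treated replicate 2, and -3.47 ± 0.26 against control). Rtl1, the retrotransposon-derived placental gene, had 16.0 and 27.7 against 0 and 1.90 in ESCs and 283 and 294 in control. Against control, 8 of 36 imprinted genes were higher and 14 lower, 5 and 8 without control replicate 1.

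Epithelial and epidermal genes, high in control X-GFP high cells, lay nearer to ESCs with IFNγ. Of 23 epithelial junction genes, 13 were higher than in ESCs and 4 lower (median 0.39), where control cells had 22 higher and a median of 1.34, and 20 of the 23 were lower with IFNγ than in control. The 4 became 2 without ESC replicate 1. Krt8, a simple epithelial keratin, had 946 and 1486 with IFNγ, 572 and 471 in ESCs and 7520 and 5870 in control (1.19 ± 0.17 against ESCs and -2.49 ± 0.17 against control). Its partner Krt18 was higher than in ESCs by 2.17 ± 0.13. E-cadherin, Cdh1, had 8291 and 8856 with IFNγ, below the 10148 and 10289 of ESCs and the 13416 and 13048 of control. Of 10 epidermal genes tested, 6 were higher than in ESCs and 1 lower (median 1.80), and all 15 tested against control were lower with IFNγ. The basal keratin gene Krt14 had 122 and 210 against 11.8 and 8.56 in ESCs and 931 and 798 in control, and Krt19 had 386 and 380 against 17.7 and 17.1 and, in control, 2064 and 1518. Mesenchymal genes were higher in 5 of 12 and lower in 4 (median 0.16), with vimentin, Vim, at 873 and 1026 with IFNγ, 2532 and 2649 in ESCs and 439 and 492 in control.

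Most tested genes of extraembryonic lineages were above ESC level, and the primitive endoderm genes named here had low absolute counts. Of 17 primitive endoderm genes, 12 were higher, 9 at least 2-fold, and 1 lower (median 1.02, and 0.79 in control cells). The GATA factor gene Gata6 had 92.5 and 90.1 against 6.88 and 9.52 (3.34 ± 0.30), the receptor gene Pdgfra 147 and 163 against 33.4 and 43.8 (1.99 ± 0.22) and Sox17 35.4 and 41.6 against 11.8 and 14.3 (1.49 ± 0.32). The summed level of 6 primitive endoderm markers was 521 to 556 against 192 to 201 in ESCs. It was 494 to 510 in control X-GFP high cells and 430 to 725 in NPCs. In bulk RNA more cells of this kind and more RNA per cell cannot be told apart. Of 11 trophectoderm genes tested, 9 were higher and 2 lower (median 1.19), led by genes shared with other epithelia such as Tfap2a, Krt7 and Krt18. In control cells 11 of 13 were higher than in ESCs and 2 lower (median 1.77). Of 14 tested directly against control, 1 was higher with IFNγ and 8 were lower. Cdx2, the defining factor of that lineage, was too low to test, with 2.28 and 4.62 against 7.86 and 4.76. Of 13 neural genes, 5 were higher and 2 lower (median 0.53). Nes (nestin) had 655 and 688 against 558 and 620 (0.19 ± 0.10, called only without IFNγ-treated replicate 1 or in edgeR and the fit over all libraries) and was below the 1552 and 1493 of control.

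Fibroblast genes bear on the feeder layer, but NPCs expressed their markers too. Of 18 tested, 15 were higher than in ESCs, 12 at least 2-fold, and 2 were lower (median 1.47, and 1.80 in control cells). Dcn (decorin), a matrix proteoglycan that is also imprinted, had 41.1 and 119 with IFNγ, 0 and 0.952 in ESCs and 2176 and 1668 in control, a ratio to ESCs of 165 (95% exact counting interval 29.2 to 6571) and a log2 fold change against control of -4.74 ± 0.34. Col3a1 had 19.4 and 18.5 against 0 in both ESC libraries, at least 13.1-fold higher against a floor of 3 reads over the group. The summed level of 8 fibroblast markers was 409 to 545 with IFNγ, 276 to 311 in ESCs and 1947 to 2420 in control. With IFNγ, in ESCs and in control, 0, 3 and 0 of the 8 were at 0. In NPCs, which were plated on gelatin, the sum was 28398 to 40665, so these markers were not particular to feeders. Dcn alone made up most of the control sum. The markers Col1a1 (0.20), Col1a2 (0.51) and Col3a1 (0.74) were not called against control. Of 20 list members tested against control, 1 was higher with IFNγ, 8 were lower and 11 were not called. The feeders were male. The summed level of 4 Y-linked genes was 2.31 to 4.57 with IFNγ, 2.06 to 4.27 in control and 0 to 1.90 in ESCs. In these groups 2, 1 and 3 of the 4 were at 0. The part of feeder RNA in the fibroblast genes was not tested beyond these values.

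X-linked genes as a class were below ESC level, and chromosome 8 stood out among the autosomes. Of 629 X-linked genes, 111 were higher (17.6%) and 323 lower (51.4%), with a median log2 fold change of -0.32, where the autosomes without chromosome 8 had 0.01. The median difference from the ESC mean was -0.31 and -0.32 in the IFNγ-treated libraries, -0.45 and -0.42 in control X-GFP high cells and -0.90 and -0.88 in NPCs. It was alike along the chromosome, at -0.30, -0.31, -0.36 and -0.30 in 4 stretches of equal gene number. Set directly against control, 187 of 603 X-linked genes were higher and 66 were lower (31% and 10.9%), with a median of 0.15. In the X-inactivation center, Xist, the RNA that coats the inactive X, had 795 and 981 with IFNγ, 742 and 841 in ESCs and 1652 and 1357 in control. Xist was not called against ESCs (0.16 ± 0.11, adjusted p = 0.23) except without IFNγ-treated replicate 1 (0.31), and was lower than in control (-0.76 ± 0.12, adjusted p = 0.00052). Its antisense repressor Tsix, truncated on X mus in this line, was not called against ESCs (0.12 ± 0.09) and was higher than in control by 0.73 ± 0.11. Of 7 genes of the center, 2 were higher than in ESCs, Tsx (1.40 ± 0.18) and Rlim, the ubiquitin ligase that activates Xist (0.31 ± 0.07), and none was lower.

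Chromosome 8 was noticed after its values were seen. Of its 807 genes, 168 were higher than in ESCs (20.8%) and 421 lower (52.2%), with a median of -0.29 (-0.32 and -0.26 in the IFNγ-treated libraries). The other 18 autosomes had medians from -0.08 to 0.14 and shares of lower genes from 27.1% to 38.8%. All 4 stretches of equal gene number on chromosome 8 were low, at -0.19, -0.38, -0.33 and -0.25. Control X-GFP high libraries had -0.08 and -0.04, and in the direct comparison 27 of 794 genes were higher with IFNγ (3.4%) and 335 lower (42.2%). The same sign was seen in IFNγ-treated X-GFP medium cells (-0.34 and -0.30, control -0.12 and -0.14) and X-GFP negative cells (-0.29 and -0.26, control -0.12 and -0.12), and at day 5 both with IFNγ (-0.46 and -0.51) and without it (-0.31 and -0.37). In NPCs it was -0.15 in both libraries, equal to -0.15 over the other autosomes. Why chromosome 8 differs, including its copy number in these cultures, was not tested.

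**Figure D4:**
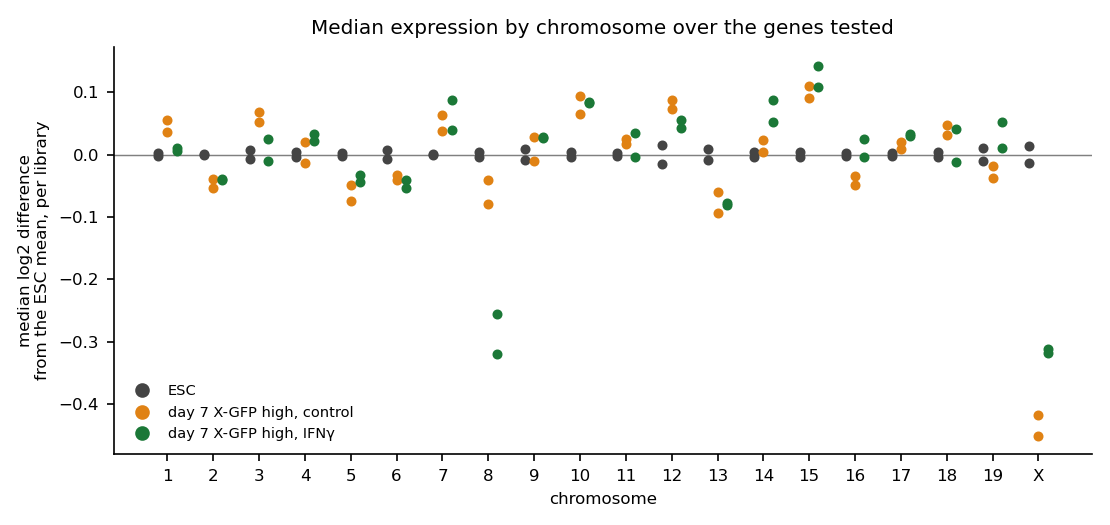
Median log2 difference from the ESC mean over the tested genes of each chromosome, 1 point per library, for ESCs, control and IFNγ-treated day 7 X-GFP high cells. The X lies below 0 in both X-GFP high populations, and chromosome 8 lies at -0.32 and -0.26 in the IFNγ-treated libraries against -0.08 and -0.04 in the control libraries.

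The hybrid genome separates reads of X mus, which is silent in NPCs, from reads of the castaneus X. The proportion of allelic reads that come from X mus was deposited with 1 value per gene and population, so it has no replicate error, and its depth is unknown. The paper describes 315 protein-coding genes selected for a minimum share of expression from the castaneus X in every population. That selection disfavours genes with a high X mus proportion, and the medians and rankings below rest on it. Over 315 X-linked genes without Xist, the median proportion was 0.396 in IFNγ-treated X-GFP high cells and 0.480 in ESCs, against 0.335 in control X-GFP high cells, 0.236 in IFNγ-treated X-GFP medium cells and 0.00106 in NPCs. IFNγ-treated X-GFP high cells were lower than ESCs in 266 genes (84.4%) and within 0.1 of ESCs in 188 (59.7%), where control cells were within 0.1 in 104 (33%). A proportion below 0.25 was left in 45 genes (14.3%), against 89 in control cells and 14 in ESCs. Against control cells the proportion was higher in 272 genes (86.3%), with a median difference of 0.0589. Xist came almost wholly from X mus in both, at 0.989 and 0.999.

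Among 280 genes with an ESC proportion of 0.25 to 0.75 and a mean above 100 normalized counts, the largest deficits from ESCs were in Mid1ip1, a regulator of lipid synthesis (0.306 against 0.695), Zc4h2 (0.172 against 0.512), Maoa, the monoamine oxidase (0.178 against 0.516), Pfkfb1 (0.198 against 0.535), 2610002M06Rik (0.223 against 0.556) and Tmem164 (0.291 against 0.601). Total expression did not follow in each of them. Maoa fell with its proportion, from 3683 and 3754 normalized counts in ESCs to 1080 and 1211 (-1.70 ± 0.08), and so did Mid1ip1 (-1.10 ± 0.09), but Pfkfb1 was not called (0.12 ± 0.15) except without IFNγ-treated replicate 2 (0.31). Tmem164 was higher (0.26 ± 0.10), a call that DESeq2 did not make and that was lost without any 1 of ESC replicate 1, ESC replicate 2 and IFNγ-treated replicate 2. Among the same 280 genes the largest excess was in Eif2s3x, a translation factor that escapes X inactivation (0.799 against 0.540), then in Trmt2b (0.618 against 0.445). By class, 36 genes whose proportion was lower than in ESCs by over 0.2 had a median log2 fold change of -0.69, with 3 higher and 25 lower, 80 genes lower by 0.1 to 0.2 had -0.53, and 187 tested genes within 0.1 of ESCs had -0.26, with 35 higher and 109 lower. Genes with proportions near those of ESCs had a total level below ESCs as well, and 314 X-linked genes not in the proportion table had a median of -0.29. Both measures come from the same libraries, so this is a description.

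**Figure D5:**
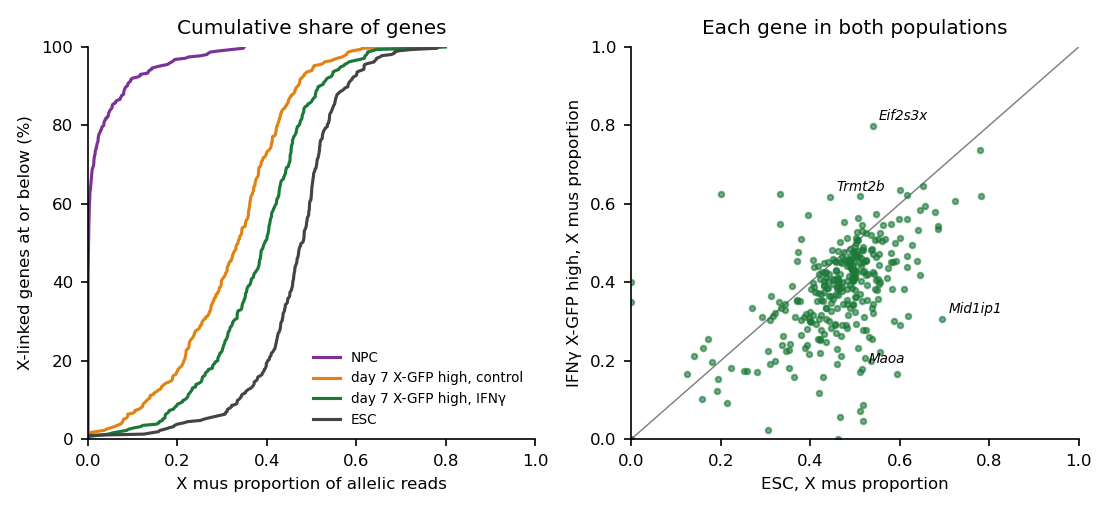
X mus proportion of allelic reads for 315 X-linked genes. Left, the percentage of genes at or below each proportion in NPCs, control and IFNγ-treated day 7 X-GFP high cells and ESCs, with medians of 0.00106, 0.335, 0.396 and 0.480. Right, IFNγ-treated X-GFP high cells against ESCs, 1 point per gene, with the line of equal values, above which Eif2s3x and Trmt2b lie and below which Maoa and Mid1ip1 lie.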

How the data were processed

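Total RNA, depleted of ribosomal RNA, was sequenced in stranded TruSeq libraries on a HiSeq 2500 (paired reads of 50 bases, or 125 bases trimmed to 50). The authors aligned reads with STAR and WASP to mm10 with strain SNPs masked, counted them with HTSeq 0.6.1 and divided the counts by DESeq2 size factors. The deposited values are such normalized counts, a signal per gene and not raw counts, and all values of the libraries compared here were whole multiples of 1 read within 0.1. The authors also deposited the X mus fraction of allelic reads per gene and population, written with a decimal comma. How replicates entered it is not stated in the sources used here. Of 37315 genes, 35533 (95.2%) were matched to the annotation for chromosomes.

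Genes with a mean above 10 in the 4 libraries of a comparison were tested as log2(normalized count + 1) with limma 3.58.1 (R 4.3.3, intensity trend) and Benjamini-Hochberg adjustment at 0.1. DESeq2 1.42.0 and edgeR 4.0.16 on the recovered reads were alternatives, and scripts were tested on simulated data. Further alternatives were a pseudocount of 0.1, no filter, a mean above 100, equal totals, 1 fit of all 24 libraries, a replicate block and each library left out. Ratios with near-0 ESC counts carry exact 95% intervals, which, like the floor of 3 reads, cover counting error only. Fold changes of low genes are understated by the pseudocount.

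The 34 gene lists (667 symbols, 657 in the table, 10 not analysed here, 574 members tested) and all members were chosen with earlier results of these data known. Named genes were core list members, up to 4 further members per list called at 2-fold or more whose groups did not overlap and reached a mean of 100 in either group, the 10 largest increases and decreases, and the 6 largest deficits and the largest excesses in X mus proportion among 280 genes with an ESC proportion of 0.25 to 0.75 and a mean above 100. Some genes that the rule names are not reported here. Ahrr, Calr, Ccne1, Cyp1b1, Dnajb1, Dusp9, Gli1, H2-Q7, Hspa1b, Hspa8, Ifitm3, Irgm2, Isg15, Klhl13, Nop2, Nqo1, Pcna, Psmb10, Psmb9, Ptch1, Rtl1, Sp5, Srebf2, Tfap2a, Tgtp2 and Tiparp were named after their values were seen. Promoter sequences are RefSeq's. The labels share replicate numbers between groups, but deviations of same-numbered libraries from their group means correlated at -0.07 over ESCs and IFNγ-treated cells, so the numbers were taken as names only.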

Additional observations from a re-analysis of the deposited data

Results flagged for a closer look

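A set of 3 genes named for the lists was called on opposite sides of ESCs in the IFNγ-treated and the control X-GFP high cells, and the direct difference between these populations was itself called. E-cadherin, Cdh1, was below ESCs with IFNγ (log2 fold change -0.25) and above them in control (0.37), with a difference of -0.63 between the populations. Mael, the piRNA pathway gene, was above ESCs with IFNγ (1.05) and below them in control (-0.55), a difference of 1.60. Zeb1, a repressor of E-cadherin that marks mesenchymal cells, had 676 and 622 normalized counts with IFNγ, 474 and 456 in ESCs and 288 and 346 in control. It was above ESCs with IFNγ (0.48) and below them in control (-0.56), a difference of 1.04. The direct differences of all 3 genes were called under each of the 11 alternatives run for them, DESeq2 and edgeR among them. The position of Cdh1 below ESCs was not called in the fit over all 24 libraries. The comparisons with ESCs share the ESC libraries.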

How the results depend on the processing

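Against ESCs the counts of called genes were 5214 higher and 5094 lower in edgeR, 4357 and 4245 in DESeq2, and 4406 to 5083 and 4124 to 5220 with 1 library left out. Without a filter, 3149 genes were higher by at least 2-fold. Against control X-GFP high cells, DESeq2 called 1585 genes higher and 2529 lower, with 113 higher by at least 2-fold against 220 in limma, and 1664 were higher without a filter. With 1 library left out, 967 to 3187 were higher and 1774 to 3657 lower, with 158 to 331 higher and 673 to 922 lower by at least 2-fold. The replicate number as a block gave 5054 higher and 5112 lower against ESCs and 3171 and 3423 against control, and moved no count by over 1.5 times.

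The X-linked median became -0.19 without a filter and -0.37 at a mean above 100, the autosomal median 0.072 and -0.058, and that of chromosome 8, an alternative chosen after seeing the data, -0.18 and -0.34. With 1 library left out they were -0.32 to -0.31, -0.01 to 0.01 and -0.33 to -0.26. As means over genes the X mus proportions were 0.381 with IFNγ and 0.464 in ESCs, and the IFNγ median was 0.402 at a mean above 100.

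Of the values of 220 named genes against ESCs under alternatives, 2348 kept direction and call, 53 lost a call, 15 gained one and 2 reversed, in 30 genes. Calls against control are not in these counts. Those of H2-K1, Dazl and Hormad1 were lost in the fit over all libraries, while others, such as that of Bmp4, were made in all 11 alternatives. Hspa1a reversed to 0.85 without ESC replicate 1 (-1.37 without replicate 2) and Ncl to 0.13 without IFNγ-treated replicate 1 (-0.36 without replicate 2). In the fit over all libraries Esrrb, Dazl, Cdh1 and Ldha were not called against ESCs. The causes were not tested. At 2 libraries a group, small differences from ESCs near the threshold are the least certain, and genes under a mean of 10 were not tested.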
